A study of Mus musculus with 11 samples.

Results

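The transcripts of 9 genes of circulating blood were followed through 11 mouse lung libraries: the platelet genes Tubb1, Ppbp, Pf4, Gp9 and Gp1ba, and the red cell genes Alas2, Slc4a1, Hbb-bs and Hbb-b1. They were picked by name from the 24515 genes of the count table, with the difference between tumors and normal lungs already known, and the transcripts of a gene were summed. Every mouse lacked Gprc5a (Gprc5a-/-), a receptor of the lung epithelium, and had been given NNK, a carcinogen of tobacco, by intraperitoneal injection at 50 mg/kg in 3 doses a week over 8 weeks. The libraries came from 5 adjacent normal lungs and from 6 tumors of 5 mice, of which 3 carried the tag ADN and 3 the tag ADC, tags that the labels do not spell out. Mouse m335, at 4 months after NNK, gave an ADN and an ADC tumor. Mouse m368, at 6 months, and mouse m350, at 7 months, each gave an ADN tumor. Mice m372 and m378, both at 7 months, each gave an ADC tumor. The normal lungs share the deletion and the carcinogen, and lungs of other mice were not analysed here. The tumors of mouse m335 share their normal lung, so p-values measure the spread between these libraries and mice and nothing wider.

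Platelets are cell fragments shed by megakaryocytes, which reside in the bone marrow and also in the lung, and they carry messenger RNA made in the parent cell. Red cells of mammals lose their nucleus, and the youngest of them, the reticulocytes, still hold globin and heme synthesis transcripts. A lung library therefore samples blood held in its vessels along with the tissue. In bulk RNA, fewer cells of a type and less RNA per cell cannot be told apart.

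Of the 9 genes, 7 have a promoter in the RefSeq table (GRCm38.p6), and the 250 bases before the start of 5 of them are shown because the neighbors Ppbp and Pf4 parted in the tumors while the other 3 hold a GATA motif. GATA1 is the master transcription factor of red cells and megakaryocytes. The motif was searched on both strands as GATA with A or T before it and A or G after it, and capitals mark its matches, read 5′ to 3′ along the strand of the gene.
Ppbp: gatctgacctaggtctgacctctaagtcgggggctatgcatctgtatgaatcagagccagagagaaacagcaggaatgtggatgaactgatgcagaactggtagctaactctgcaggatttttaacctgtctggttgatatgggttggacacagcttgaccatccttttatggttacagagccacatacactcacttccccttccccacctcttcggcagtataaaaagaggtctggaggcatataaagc
Pf4: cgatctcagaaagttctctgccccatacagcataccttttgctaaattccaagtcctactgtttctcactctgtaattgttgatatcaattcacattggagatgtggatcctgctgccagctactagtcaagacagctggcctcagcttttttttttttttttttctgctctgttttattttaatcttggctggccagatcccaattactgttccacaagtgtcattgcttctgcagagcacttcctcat
Gp1ba: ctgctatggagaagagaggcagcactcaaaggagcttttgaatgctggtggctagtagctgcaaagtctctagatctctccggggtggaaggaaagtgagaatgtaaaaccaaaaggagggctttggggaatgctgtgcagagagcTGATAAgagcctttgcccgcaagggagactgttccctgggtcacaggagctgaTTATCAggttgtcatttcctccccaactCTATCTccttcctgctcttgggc
Alas2: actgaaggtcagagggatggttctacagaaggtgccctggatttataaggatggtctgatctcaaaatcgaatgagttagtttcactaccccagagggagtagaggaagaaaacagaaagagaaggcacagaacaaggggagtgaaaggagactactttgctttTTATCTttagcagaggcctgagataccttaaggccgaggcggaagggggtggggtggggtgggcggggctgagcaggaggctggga
Hbb-bs: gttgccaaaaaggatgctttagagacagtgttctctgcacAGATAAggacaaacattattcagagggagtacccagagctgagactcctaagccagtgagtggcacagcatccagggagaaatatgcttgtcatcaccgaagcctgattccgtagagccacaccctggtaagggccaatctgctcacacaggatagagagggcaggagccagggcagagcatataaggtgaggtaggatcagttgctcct
These windows are chr5:90768268-90768517 (plus strand), chr5:90772185-90772434 (plus), chr11:70638872-70639121 (plus), chrX:150547167-150547416 (plus) and chr7:103827929-103828178 (minus). Gp1ba held 3 matches, which began 104, 51 and 23 bases before the start. Alas2 held 1 match at 86 bases and Hbb-bs 1 at 210 bases. The motif was thus in 3 of the 7 windows, and it was in 26.5% of the 32851 windows of the table. CACCC, the letters of a box bound by Krüppel-like factors, was in 5 of the 7 windows and in 52.0% of all windows. AGGAAG, letters typical of ETS factor sites, was in 5 of the 7 windows and in 29.5% of all. The shares were not tested, and a match is a string of letters, not a bound site. Matches of the 3 motifs may overlap by their end letters.

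Levels are given as CPM, counts scaled to the library size, with sizes corrected by TMM. Values of normal lungs are listed in the order of mice m335, m368, m350, m372 and m378, those of ADN tumors as m335, m368 and m350, and those of ADC tumors as m335, m372 and m378. All 9 genes passed the filter on low counts. Because that filter keeps a gene that is expressed in the normal lungs alone, passing it says nothing about the tumors. In 8 of the 9 genes every tumor lay below every normal lung, a pattern shown by 7.91% of the 15175 genes tested. These values chose the genes, so they are a description and carry no test. Pf4 was the exception. Among the 8, the highest tumor of Slc4a1, at 5.16 CPM, was only just below its lowest normal lung, at 5.19 CPM. Hbb-bs and Hbb-b1 are best read as 1 measurement.

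**Figure D1:**
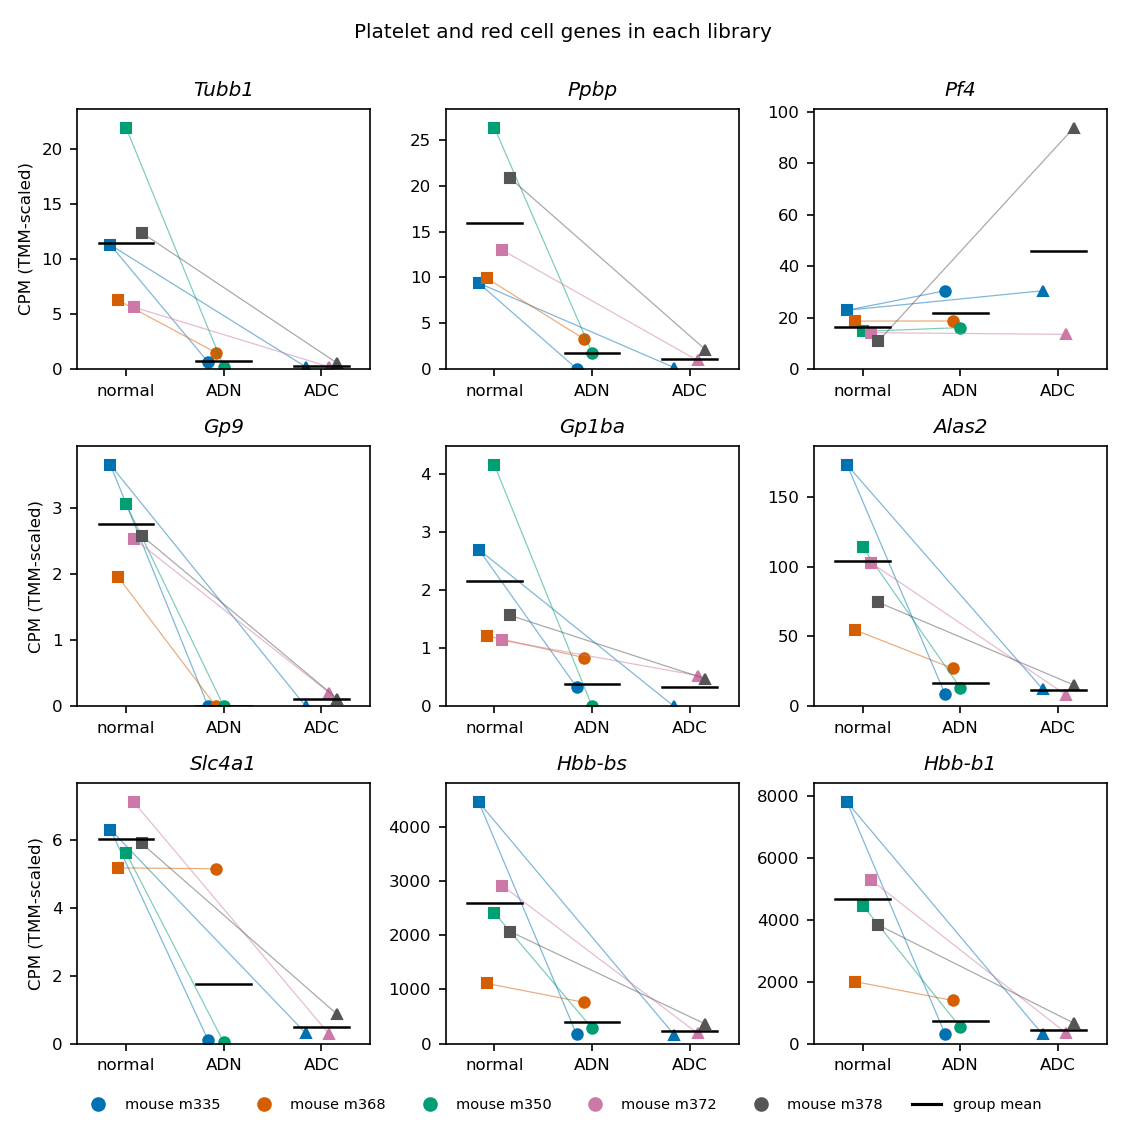
CPM of each gene (linear vertical axes from 0, 1 scale per gene) in the normal, ADN and ADC libraries. Squares are normal lungs, circles ADN tumors and triangles ADC tumors, thin lines join libraries of 1 mouse, and black bars are group means. Pf4 reached 93.7 CPM in the ADC tumor of mouse m378, whereas in the other genes all tumors lay below all normal lungs.

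Tubb1 (chromosome 2, 174450595 to 174458380, GRCm38) encodes the beta-tubulin of the ring of microtubules that gives the platelet its disc shape. It stood at 11.3, 6.25, 21.9, 5.63 and 12.4 CPM in the normal lungs. The ADN tumors had 0.636, 1.5 and 0.214 CPM and the ADC tumors 0.203, 0.208 and 0.553 CPM, so the groups did not overlap and the ADN tumor of mouse m368 was the highest tumor. The mean was 11.5 ± 6.55 CPM (SD, n = 5) in normal lungs and 0.552 ± 0.502 CPM (SD, n = 6) in tumors, 20.8-fold lower. The 6 tumors together held 97 counts of Tubb1, which limits the precision of each tumor value.

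Gp9 and Gp1ba encode subunits of the platelet receptor for von Willebrand factor, the glycoprotein Ib-IX-V complex that tethers platelets to an injured vessel wall. Gp9 (chromosome 6, 87778136 to 87779762) had 129, 63, 99, 56 and 91 counts in the normal lungs, or 3.66, 1.96, 3.06, 2.54 and 2.59 CPM. No count was seen in the 3 ADN tumors or in the ADC tumor of mouse m335, and the other ADC tumors had 9 and 3 counts. A count of 0 allows up to 3 counts, which is 0.100, 0.105 and 0.107 CPM in the ADN tumors. Pooled over libraries, Gp9 was at least 80.5-fold lower in the ADN tumors than in the normal lungs, with the 3 counts taken over the whole ADN group. It was 43.0-fold lower in all tumors, from 438 against 12 counts, with an exact 95% interval of 24.4 to 83.8 that covers counting error only. Among the 5 platelet genes followed here, Gp9 was thus the one with the fewest tumor counts.

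Gp1ba (chromosome 11, 70639122 to 70642055) had the lowest mean of the 5 in normal lungs, at 2.69, 1.21, 4.15, 1.13 and 1.56 CPM. Its tumor values were 0.335, 0.837 and 0 CPM in ADN and 0, 0.531 and 0.474 CPM in ADC. Tumors and normal lungs did not overlap, but the highest tumor was close to the lowest normal lung. The means were 2.15 ± 1.28 CPM (SD, n = 5) and 0.363 ± 0.326 CPM (SD, n = 6), 5.93-fold lower in tumors.

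Ppbp and Pf4 encode the chemokines CXCL7 and CXCL4, which platelets store in their alpha granules and release on activation. They are neighbors on chromosome 5, Ppbp at 90768518 to 90770062 and Pf4 at 90772435 to 90773383, with 2372 bases between them. Ppbp stood at 9.38, 9.91, 26.3, 12.98 and 20.8 CPM in the normal lungs. It was at 0.0669, 3.28 and 1.79 CPM in the ADN tumors and at 0.169, 0.946 and 2.13 CPM in the ADC tumors. Every tumor was below every normal lung, and both tumors of mouse m335 were the lowest. The mean went from 15.9 ± 7.41 CPM (SD, n = 5) to 1.40 ± 1.24 CPM (SD, n = 6), 11.4-fold lower.

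Pf4 did not follow its neighbor. It was at 22.9, 18.7, 14.7, 14.2 and 10.9 CPM in the normal lungs, at 30.4, 18.7 and 16.1 CPM in the ADN tumors, and at 30.4, 13.5 and 93.7 CPM in the ADC tumors. The groups overlapped, and the highest value of all 11 libraries was the ADC tumor of mouse m378, whose own normal lung was the lowest. The tumor mean was 33.8 ± 30.2 CPM (SD, n = 6) against 16.3 ± 4.61 CPM (SD, n = 5), and the fitted log2 difference was 0.62 ± 0.43 (SE). Against the own normal lung, Pf4 was higher in 5 of 6 tumors. That count includes the ADN tumor of mouse m368 at 100.1% of its normal lung, and the range of the 5 tumors other than the ADC tumor of m378 was 95.4% to 133.0%. In the ADC tumor of mouse m378 it was at 855.1%.

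The ratio of Pf4 to Ppbp was therefore higher in every tumor than in every normal lung. In normal lungs 0.525 to 2.44 counts of Pf4 were seen per count of Ppbp, and in tumors 5.70 to 454.5. The lowest tumor ratio was that of the ADN tumor of mouse m368, and the highest, in the ADN tumor of mouse m335, rests on 2 counts of Ppbp. Per kilobase of transcript, Pf4 led the platelet genes in normal lungs at 27.7 ± 7.83 CPM per kb (SD, n = 5), followed by Ppbp at 14.7 ± 6.85, Tubb1 at 8.18 ± 4.66, Gp9 at 3.13 ± 0.722 and Gp1ba at 0.793 ± 0.471. Neighbors in that order overlapped in the libraries for Pf4 and Ppbp and for Ppbp and Tubb1, and Tubb1 overlapped Gp9 only between its lowest library at 4.004 and the highest Gp9 library at 4.15. Gp9 and Gp1ba did not overlap, with 2.22 as the lowest Gp9 library and 1.53 as the highest Gp1ba library. In tumors Pf4 still led, at 57.5 ± 51.4 CPM per kb (SD, n = 6), while Ppbp was at 1.29 ± 1.15. Among these 5 genes Pf4 alone had a tumor mean above that of the normal lungs.

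**Figure D2:**
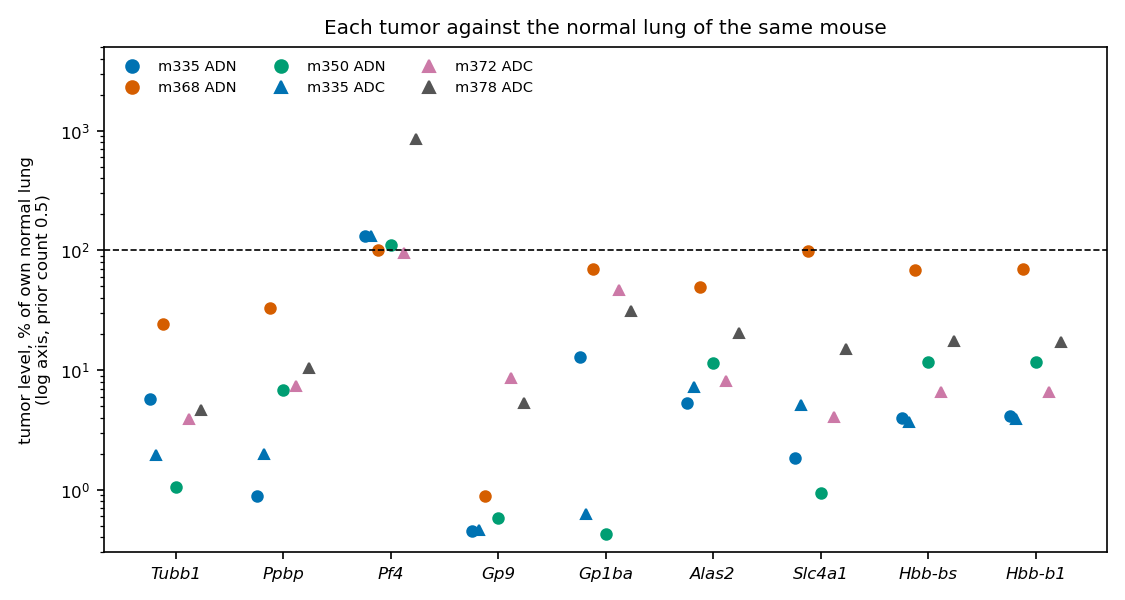
Level of each gene in each tumor as a percentage of the normal lung of the same mouse (log axis, with a prior count of 0.5 added before scaling). Colors mark mice, circles ADN and triangles ADC tumors, and the dashed line marks equality. Pf4 lies at or above the line except in the ADC tumor of mouse m372, at 95.4%, and the ADN tumor of mouse m368 is the tumor nearest the line for 7 of the other genes, Gp9 being the exception.

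Alas2 (chromosome X, 150547417 to 150570622) encodes the erythroid form of the enzyme that starts heme synthesis. It was at 172.5, 54.6, 113.6, 102.8 and 74.4 CPM in the normal lungs. The ADN tumors had 9.10, 27.2 and 13.1 CPM and the ADC tumors 12.5, 8.30 and 15.3 CPM. No tumor reached the lowest normal lung, that of mouse m368, whose ADN tumor was the highest tumor. The means were 103.6 ± 45.01 CPM (SD, n = 5) and 14.3 ± 6.85 CPM (SD, n = 6), 7.27-fold lower. Apex2 and Mir3620 overlap Alas2 on the opposite strand in the GENCODE annotation, and no source used here gives the strand setting of the counting.

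Slc4a1 (chromosome 11, 102348820 to 102365281, minus strand) encodes band 3, the anion exchanger that anchors the red cell membrane to its skeleton. Its normal lungs were close together, at 6.32, 5.19, 5.63, 7.13 and 5.91 CPM. The ADN tumors had 0.100, 5.16 and 0.0357 CPM, and the ADC tumors had 0.304, 0.277 and 0.869 CPM. Mouse m368 alone kept band 3 transcripts in its tumor, at 99.5% of its normal lung (148 and 167 counts). The other 5 tumors were at 0.949% to 15.0%. The means were 6.04 ± 0.736 CPM (SD, n = 5) and 1.13 ± 2.001 CPM (SD, n = 6), so the spread of the tumors exceeded their mean.

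Hbb-bs and Hbb-b1 encode adult beta-globin, the partner of alpha-globin in hemoglobin. Hbb-bs (chromosome 7, 103826523 to 103827928, minus strand) was at 4454, 1111, 2411, 2917 and 2068 CPM in normal lungs, at 175.7, 761.5 and 284.2 CPM in ADN tumors, and at 164.4, 190.2 and 361.8 CPM in ADC tumors. Groups did not overlap, and mouse m368 had both the lowest normal lung and the highest tumor. The mean was 2592 ± 1232 CPM (SD, n = 5) in normal lungs and 323 ± 228 CPM (SD, n = 6) in tumors, 8.03-fold lower. The deposited table lists Hbb-b1 at 103826532 to 103827929, within 9 bases of Hbb-bs, and gives it 1.75 to 1.86 times the counts of Hbb-bs in every library. Since the rows overlap and kept nearly a constant ratio, how reads were split between these near-identical copies is uncertain, and they are best read as 1 measurement. Hbb-b1 was at 2009 to 7809 CPM in normal lungs against 304.5 to 1397 CPM in tumors.

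The tumor that stayed nearest to its own normal lung came from mouse m368. Hbb-bs was at 68.5%, Gp1ba at 69.6% (24 and 39 counts), Alas2 at 49.8%, Ppbp at 33.2% and Tubb1 at 24.2% of the normal lung of that mouse. In the other 5 tumors Hbb-bs was at 3.69% to 17.5%, Ppbp at 0.890% to 10.3% and Tubb1 at 1.06% to 5.78%. Gp9 did not share this, with 0 counts in the tumor and 63 in the normal lung. The summed level of the 4 red cell genes was 68.9% of the normal lung in this tumor and 3.87% to 17.4% in the others. That of the 4 platelet genes without Pf4 was 29.1% against 1.38% to 8.77%. In normal lungs Hbb-bs and Hbb-b1 gave 2592 and 4687 of the mean red cell sum of 7388 CPM. The red cell sum thus largely repeats the beta-globin level and says little of Alas2 and Slc4a1.

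Alas2 is the only one of the 9 with more than 1 transcript row. Both start at the same base, and NM_001102446 lacks a stretch of 45 coding bases, or 15 residues, that NM_009653 has at the start of exon 3 of 11. The matching GENCODE transcripts are 1892 and 2037 bases long, with 1716 and 1761 coding bases, so they differ outside the coding sequence too. The split of counts between these forms therefore need not rest on this stretch alone. The stretch is chrX:150552959-150553003 on the plus strand of GRCm38, taken from the GENCODE M21 transcripts, and it is shown in capitals for its last 2 bases, where a splice acceptor ends in the shorter form.
Alas2 stretch: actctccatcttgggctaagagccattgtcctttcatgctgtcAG
In normal lungs the shorter transcript took 21.5%, 18.7%, 22.8%, 17.1% and 22.8% of the Alas2 counts. In the ADN tumors it took 57.9%, 59.9% and 0.240%, and in the ADC tumors 75.5%, 31.6% and 38.3%. Its share was thus above every normal lung in 5 of the 6 tumors and nearly 0 in the ADN tumor of mouse m350. Wilson 95% intervals were 56.5% to 63.3% in the ADN tumor of m368, from 779 counts, and 16.9% to 20.5% in its normal lung, from 1758. They cover counting error only, while the assignment of reads to the forms was estimated by the counting program. Averaged per mouse, the share differed from the own normal lung by 18.8 ± 27.1 percentage points (SD, n = 5 mice) and was higher in 4 of 5 mice, with p = 0.25 by an exact two-sided sign-flip permutation test whose smallest possible value is 0.0625. Without mouse m350, the only one with a lower share, the mean difference was 29.1 points. With the 4 other mice all higher, the exact permutation p could only be 0.125, its smallest possible value there. It therefore decides nothing. In the m368 tumor the shorter form had 466.9 counts against 327.9 in the normal lung, and the longer form 312.1 against 1430.

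**Figure D3:**
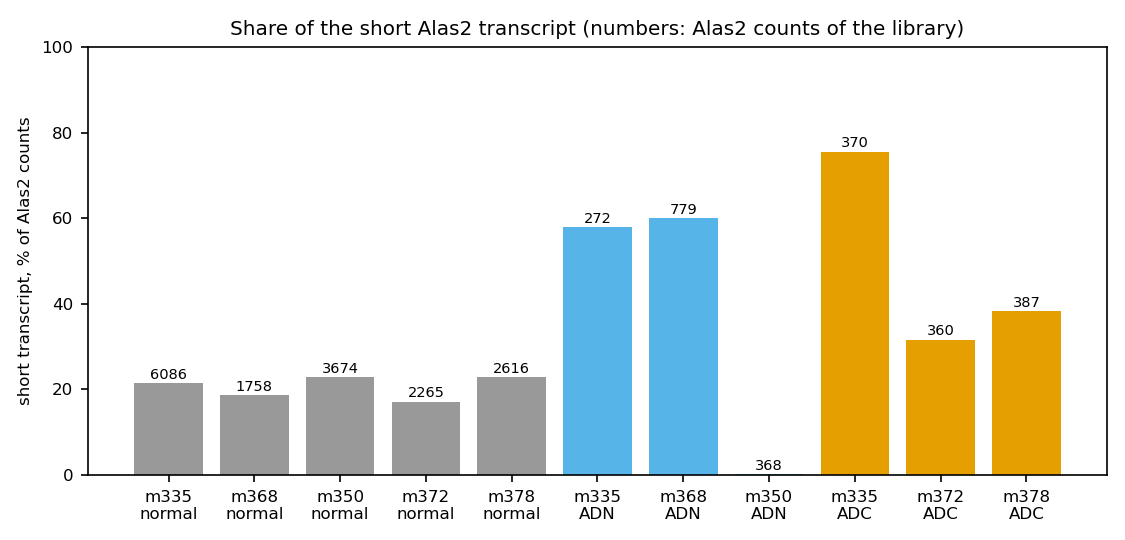
Percentage of Alas2 counts given to the shorter transcript NM_001102446 in each library (vertical axis from 0 to 100), with the number of Alas2 counts above each bar. Gray bars are normal lungs, blue bars ADN tumors and orange bars ADC tumors. The 5 normal lungs lie between 17.1% and 22.8%, and the tumors between 0.240% and 75.5%.

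Other genes of red cells and platelets were then read from the same fit, by lists that were also written with earlier results of these data known and so support nothing independently. Of 24 other red cell genes 14 could be tested, and 8 fell and 1 rose in tumors against normal lungs, compared with 7.91% of all tested genes called lower, 3.68% called higher and 11.6% in all. The median log2 fold change of the 14 was -2.80, and that of all tested genes was -0.03. Trim10, needed for late red cell maturation, changed by -4.35 ± 1.05 (SE) with an adjusted p of 0.0302 by edgeR, and Sptb, the beta-spectrin of the red cell skeleton, by -3.22 ± 0.56. Alpha-globin genes and the minor beta-globin also fell: Hba-a1 changed by -3.13 ± 0.63, Hba-a2 by -3.10 ± 0.55 and Hbb-bt by -3.03 ± 0.60, all in log2 units. Bpgm, which makes the red cell regulator of oxygen release, fell by 0.85 ± 0.21.

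Epb42, Fech, Epor and Ank1 were among the 5 genes that did not pass. Fech, the last enzyme of heme synthesis and a gene of most cells, was at 48.2 ± 2.24 CPM (SD, n = 5) in normal lungs and changed by -0.44 ± 0.17 (adjusted p = 0.144 by edgeR). The 1 gene that rose was Slc25a37, which encodes the mitochondrial iron importer mitoferrin and was singled out after its values were seen. It was at 15.0 to 30.5 CPM in normal lungs against 30.8 to 98.8 CPM in tumors, so every tumor was above every normal lung, as for 3.55% of all tested genes. Its fitted change was 1.16 ± 0.31 in log2 units (edgeR, adjusted p = 0.0434). Klf1, Rhag, Rhd, Kel, Car1, Ermap, Tspo2 and the embryonic globins Hbb-bh1 and Hbb-y fell below the filter. Of these, Klf1, a transcription factor of nucleated red cell precursors, had 12 counts in the 5 normal lungs and 21 in the 6 tumors, near 0 in both.

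Of 24 other platelet genes 22 could be tested, and 9 passed by edgeR. Each of the 9 was lower in tumors, compared with 7.91% of all tested genes called lower. The median was -1.18 in log2 units. Treml1, a receptor of platelet alpha granules, changed by -4.52 ± 1.02 (SE), and Gp5, a further subunit of the Ib-IX-V complex, by -3.49 ± 0.59. Treml1 had 444 counts in the normal lungs and 49 in the tumors, 39 of them in the ADN tumor of mouse m350. At 1.39 CPM, that tumor lay above the lowest normal lung, that of m368 at 1.34 CPM. Gp1bb, the subunit that links Gp1ba to Gp9, changed by -2.77 ± 0.58, and it overlaps Sept5 on the same strand in the GENCODE annotation, so its reads are uncertain. Itga2b, the alpha subunit of the platelet fibrinogen receptor, had the smallest adjusted p of the list, 0.00156 by edgeR, with a change of -2.98 ± 0.37, and Itgb3, its beta subunit, which vessels express too, fell by 1.13 ± 0.28. Rasgrp2, an activator of platelet integrins, changed by -2.51 ± 0.46, F13a1, the coagulation factor XIII subunit also found in macrophages, by -2.34 ± 0.55, and Rgs18 by -2.03 ± 0.47.

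The most abundant genes of the platelet list did not pass. Ptgs1, cyclooxygenase 1, was at 212.0 ± 69.003 CPM (SD, n = 5) in normal lungs and 147.3 CPM in tumors, a change of -0.47 ± 0.28. Plek differed by 0.11 ± 0.36, Fermt3 by -0.82 ± 0.37 and Nbeal2 by -0.71 ± 0.29. Plek and Fermt3 are also genes of white cells, and Ptgs1 is expressed by several cell types of the lung. Both list counts leaned on single mice. The 8 red cell genes became 3 without mouse m335, 3 without m350 and 2 without m372, and the 9 platelet genes became 5 without m350, 3 without m372 and 3 without m378. Leaving out 1 library gave 3 red cell genes without the normal lung of m335, 3 without that of m350, 2 without that of m372, 5 without that of m378, 5 without the ADN tumor of m335, 3 without the ADN tumor of m350 and 3 without the ADC tumor of m372. For the platelet genes it gave 3 without the normal lung of m335, m372 or m378, 5 without that of m368 or m350, and 3 without the ADC tumor of m372 or m378.

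**Figure D4:**
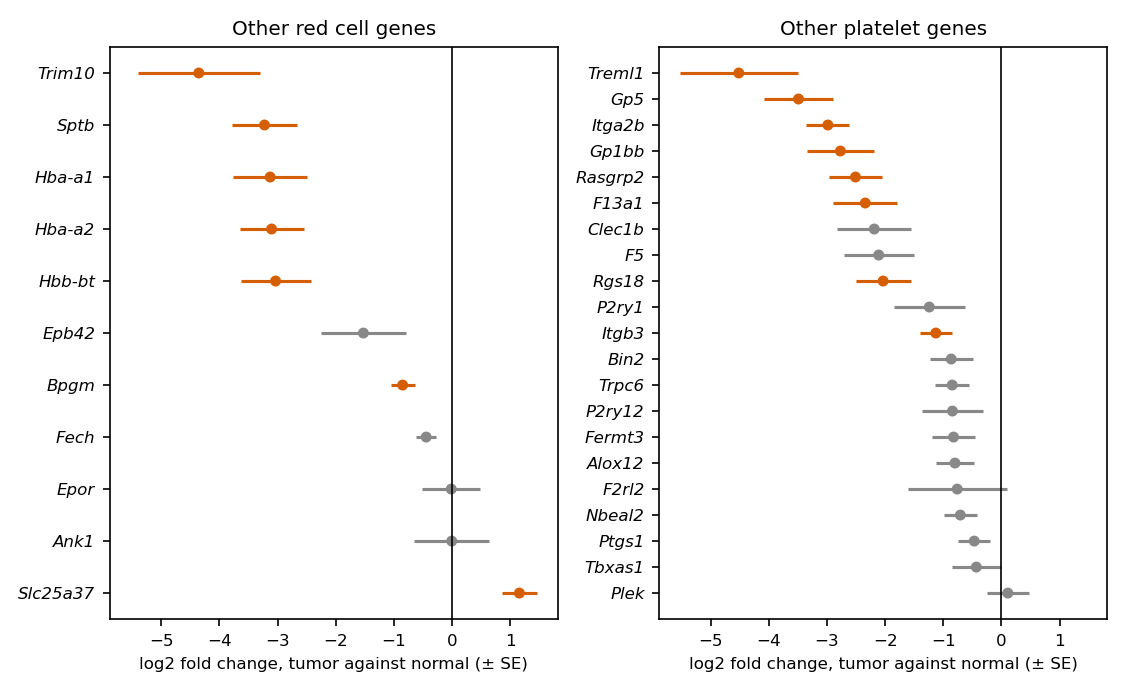
Log2 fold change of tumors against normal lungs (horizontal axis, bars ± SE of the edgeR fit with the mouse as a block) for the tested genes of the other red cell list, left, and platelet list, right. Orange genes passed an adjusted p of 0.05 and gray genes did not. The plot leaves out 4 tested genes of these lists. Slc25a37, at 1.16, is the orange gene to the right of 0.

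Transcription factors that red cell and megakaryocyte precursors share were listed as well, although endothelium and white cells express several of them. Of 10, 9 could be tested, and 6 fell and 1 rose, compared with 7.91% of all tested genes called lower and 3.68% called higher. Meis1 changed by -2.49 ± 0.23, Nfe2, the factor for late platelet formation, by -2.05 ± 0.36, Tal1 by -2.03 ± 0.25, Lmo2 by -1.86 ± 0.31, Lyl1 by -1.26 ± 0.34 and Fli1 by -1.14 ± 0.29. Runx1, which is also active in epithelium and white cells and was named after its values were seen, rose by 0.72 ± 0.16. Gata1 had 111 counts in normal lungs and 13 in tumors, 12 of them in the ADN tumor of mouse m368, a difference of -4.72 ± 1.51 with an adjusted p of 0.0809 by edgeR, which did not pass. Zfpm1, which encodes the GATA1 cofactor FOG1, was at 22.2 CPM in normal lungs and 20.6 CPM in tumors.

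Markers of vessels moved with the blood genes. Of 20 endothelial genes 16 passed by edgeR, each lower in tumors, compared with 7.91% of all tested genes called lower. The summed level of the 20 was 5101 to 8934 CPM in normal lungs against 1192 to 1935 CPM in tumors. None of these 20 was at 0. The red cell sum per endothelial sum was 0.540 to 1.63 in normal lungs against 0.270 to 1.39 in tumors, so the groups overlapped. The 4 platelet genes without Pf4 gave 3.02 to 6.90 CPM per 1000 CPM of endothelial genes in normal lungs and 0.312 to 3.56 in tumors. These groups overlapped through the m368 tumor alone, as the other tumors reached at most 2.26. Both ratios were below the own normal lung in every tumor of mice m335, m350, m372 and m378. In m372 the red cell ratio was 0.326 against 1.63, and in m350 the platelet ratio was 1.03 against 6.90. In m368 both were above it, at 1.39 against 0.540 and 3.56 against 3.29. Mouse m368 had the highest tumor on both scales, at 1.39 and 3.56, while its endothelial sum, 26.8% of its normal lung, lay within the 13.3% to 32.8% of the other tumors. The part of vessel content in the lower levels of the blood genes was not tested.

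The platelet and red cell sums were compared with each other as well. The log2 ratio of the platelet sum without Pf4 to the red cell sum was -7.81 ± 0.83 (SD, n = 5) in normal lungs and -8.84 ± 0.78 (SD, n = 6) in tumors, with overlap. Macrophage and neutrophil genes were read in the same way. Of 10 macrophage genes 2 passed, both lower (Cd163 and Lyve1), where 7.91% of all tested genes were lower, and 9 of the 10 had a negative difference. Their sum was 671.3 to 1088 CPM in normal lungs (mean 839.0) against 375.8 to 1364 CPM in tumors (mean 657.6). Of these means Lyve1 alone gave 216.0 and 51.8 CPM, so most of the difference between the means lay in Lyve1. Its change was -2.30 ± 0.30 (SE, log2), beside a median of -1.95 for the endothelial list and -0.31 for the macrophage list. The cell source of Lyve1 was not tested. The sum of the 10 genes was 55.1% to 73.9% of the own normal lung in 5 of the 6 tumors. The ADC tumor of m378 with the high Pf4 level was among them, at 73.9%. In the ADC tumor of m335 the sum was 152.8%. Of 10 neutrophil genes 1 passed, S100a9, which was lower, a share near that of all genes, and all 10 had a negative difference (median -1.23 in log2 units). Their sum was 143.1 to 608.1 CPM in normal lungs against 46.0 to 404.0 CPM in tumors, or 46.0 to 145.0 CPM without the ADC tumor of m335. It was 23.8% to 35.3% of the own normal lung in 5 tumors, beside 13.3% to 32.8% for the endothelial sum, and 282.3% in that tumor. The highest tumor value was 142.2 CPM for Cxcr4 and 112.9 CPM for Il1b, against 28.2 CPM for S100a8 and 41.0 CPM for S100a9. The sum thus does not weigh its 10 genes alike. No defining marker of either list was at 0 in all tumors, and their part in the Pf4 values was not tested.

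**Figure D5:**
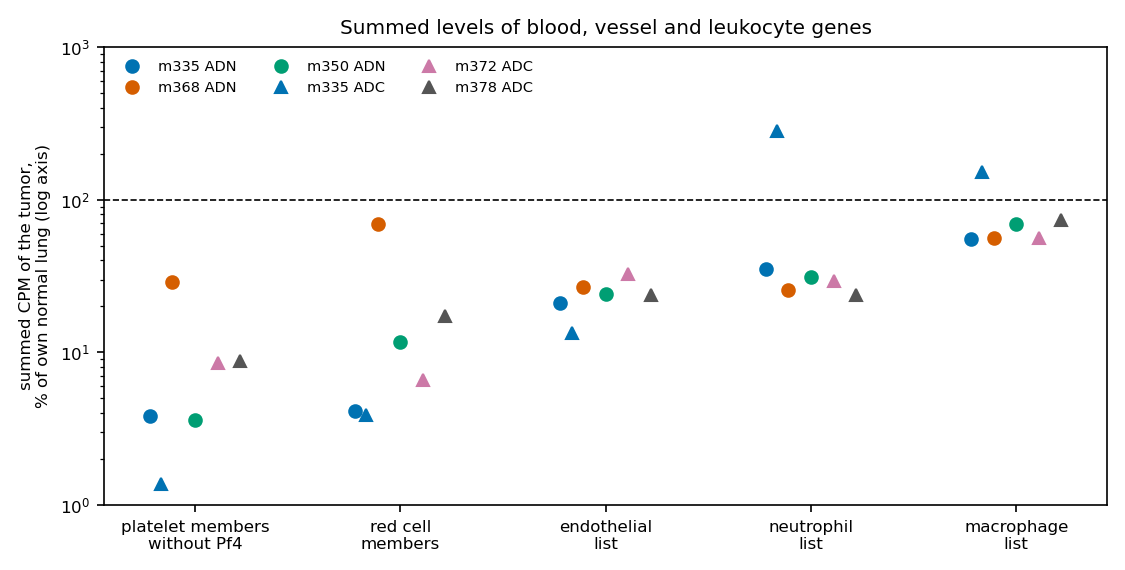
Summed CPM of 5 gene lists in each tumor as a percentage of the normal lung of the same mouse (log axis, dashed line at equality). Colors mark mice, circles ADN and triangles ADC tumors. The endothelial sums lie between 13.3% and 32.8%, whereas the red cell sums reach 68.9% in mouse m368.

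The ADC and ADN tumors were compared directly, a contrast on which the genes were not chosen. None of the 9 differed by edgeR, with adjusted p-values of 0.778 to 0.997. No gene at all was called in this contrast (0% of 15175), 992 had an unadjusted p below 0.05, and DESeq2 called 129. No alternative called any of the 9, with 0.380 as the lowest adjusted p. The 95% intervals of the log2 difference were wide, from -1.98 to 1.42 for Alas2, -3.04 to 1.40 for Hbb-bs, -3.32 to 1.38 for Tubb1, -2.97 to 2.45 for Ppbp and -0.90 to 2.26 for Pf4. A level 2-fold higher or 2-fold lower lay within each of these intervals, except the 2-fold lower one for Pf4. Gp9, with 12 counts in ADC tumors and 0 in ADN tumors, was at least 3.52-fold higher in ADC by pooled counts, and its adjusted p of 0.778 by edgeR did not pass. Of these 12 counts 9 came from the tumor of mouse m372, and without it the 3 that remain equal the limit of a count of 0, so no bound is left.

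Each tumor kind was also set beside the normal lungs, which both comparisons share. edgeR called 7.53% of the tested genes in ADN and 4.99% in ADC. Tubb1 was at -4.02 ± 0.86 (SE) in ADN and -4.99 ± 0.86 in ADC on the log2 scale. Ppbp was at -3.72 ± 0.92 and -3.98 ± 0.87, and Alas2 at -2.79 ± 0.61 and -3.07 ± 0.58. Pf4 was at 0.32 ± 0.50 and 1.002 ± 0.57. The 3 lower values were thus seen in both kinds of tumor, and these values, like the contrast that chose the genes, carry no test. With the time after NNK, the tumor difference changed in none of the 9 genes by edgeR (adjusted p 0.961 to 0.982), and in no gene of the table (0%, with 578 below an unadjusted p of 0.05 and 49 called by DESeq2). Without mouse m335, the only one at 4 months, mouse m368 alone is left at 6 months, against 3 mice at 7 months. That fit called genes, none of them among the 9, but it cannot tell time from the 1 mouse m368. Ppbp had the smallest unadjusted p of the 9, 0.0792, with a change of 0.80 log2 units per month (95% interval -0.12 to 1.73).

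Across the 11 libraries, the genes with the pattern most like the mean of the 5 platelet genes were Asap2 (Pearson r = 0.971 over log2 CPM), Parvb, Gm4956, Aqp1 and Sipa1l1 (r = 0.966), among 14067 genes of at least 1 CPM. For the 4 red cell genes they were Hbb-b2 and Hbb-bt (both 0.990, from rows with identical values), Hba-a2 (0.986), Hba-a1 (0.983) and Faim2 (0.982). These libraries share mice and the split into tumors and normal lungs. After the mean of each tissue was subtracted, the globins Hbb-b2, Hbb-bt, Hba-a1 and Hba-a2 still headed the red cell pattern (0.965 to 0.932), followed by Dusp23 (0.929). The platelet pattern was then headed by Pfdn2 (0.941), 1700086O06Rik, Ing4, Eif4g1 and Zfp553, none of them a platelet gene of the lists. That pattern is a mean that includes Pf4, which correlated with Tubb1, Ppbp, Gp9 and Gp1ba at -0.443 to -0.271. Between the 9 genes themselves, Hbb-bs correlated with Alas2 at 0.987 and with Tubb1 at 0.935, and Pf4 with Ppbp at -0.443, as a description over 11 libraries.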

How the data were processed

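Per the labels' protocols, poly-A RNA of 11 libraries was read on an Ion Proton sequencer. STAR 2.4.1d, Bowtie2 2.1.0 and Partek with build mm10 are named in the submitters' processing notes, and no source used here gives their roles or the strand setting. The authors deposited expected counts, 1 row for each of 36285 RefSeq transcripts, with no normalization. Rows were summed to 24515 genes and rounded; 78.4% to 86.2% of the sums were whole within 0.01. Ends are printed 1 base before the deposited end. Total counts were 19938822 to 46987587, and Rn45s took 7.29% to 19.2% of them.

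Genes kept by filterByExpr of edgeR 4.0.16 (15175) were scaled by TMM and fitted with its quasi-likelihood model (R 4.3.3, robust estimation) on all 11 libraries, with the mouse as a fixed block. P-values are two-sided and adjusted by Benjamini-Hochberg over all genes tested (threshold 0.05), and the fit was tested on simulated data. The paired ratios add a prior count of 0.5 and the correlations use log2 CPM computed here with a prior count of 2. DESeq2 1.42.0, other scalings, no filter, no block and leaving out each library or mouse were the alternatives. The pairing comes from the mouse identifiers, and deviations of tumor and own normal lung correlated at 0.240, 0.109, 0.00493, -0.0444, -0.0367 and 0.254.

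The 9 genes and all lists were chosen with earlier results of these data known. Named are the 9 genes, up to 6 called genes of each list with the largest change and up to 4 with the highest mean level, and the 5 genes most similar to each pattern; the most similar genes of Pf4 were added after its values were seen. For the shared, lung, endothelial, leukocyte and marrow lists mainly counts are given. Sequences are from RefSeq GRCm38.p6 and GENCODE M21; proteins were not used here. Of the list genes, 4 are counted in the list totals but not reported by name here.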

Additional observations from a re-analysis of the deposited data

Results flagged for a closer look

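In each of the 9 genes the tumors and the normal lungs were searched for a library far from the rest (Dixon's test at 95%), which chance does in about 1 of 20 groups. It was met in 6 of 18 groups, all of them tumors, and the 18 groups share the same libraries. In 5 of the 6 it was the ADN tumor of mouse m368, the highest tumor for Tubb1 (1.5 CPM), Alas2 (27.2 CPM), Slc4a1 (5.16 CPM), Hbb-bs (761.5 CPM) and Hbb-b1 (1397 CPM), of which the globin rows are not separate measurements. The other was the ADC tumor of mouse m378, with 93.7 CPM of Pf4.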

How the results depend on the processing

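The lower tumor values of Tubb1, Ppbp, Gp9, Gp1ba, Alas2, Slc4a1, Hbb-bs and Hbb-b1 kept their direction under all 22 alternatives (Tubb1 from -5.07 to -4.09, Alas2 from -3.34 to -2.48 in log2 units), as did the higher value of Pf4 (0.14 to 1.06). Scaling by library totals moved the median of all genes from -0.03 to -0.22 and reversed none of these 9. Without the replicate block ADN against normal called 1779 genes, ADC against normal 1546 and ADC against ADN 3, and Slc4a1 in ADC against ADN was reversed, at -1.88. The block rests on the mouse, and the call counts of the main comparison were 1759 with it and 2242 without. DESeq2 called 3286 genes in tumors against normal, 2931 in ADN against normal, 1858 in ADC against normal, 129 in ADC against ADN and 49 for the change per month. With no filter on low counts ADC against ADN called 5. Leaving out 1 library or mouse gave 917 to 3377 genes in tumors against normal, 0 to 1972 in ADN against normal (1142 in full), 65 to 1067 in ADC against normal (757 in full), 0 to 2 in ADC against ADN and 0 to 405 for the change per month, with 2 to 8 of the other red cell genes and 3 to 13 of the other platelet genes. It also turned the sign of ADC against ADN, which passed no threshold, for Ppbp (-1.40 to 0.87), Pf4 (-0.0183 to 1.41), Gp1ba (-1.28 to 1.94), Alas2 (-1.19 to 0.42), Slc4a1 (-1.11 to 2.30), Hbb-bs (-1.94 to 0.0477) and Hbb-b1 (-1.92 to 0.0363). The cause was not tested. The 3 counts that a count of 0 allows come to 0.0692 CPM in the deepest tumor library and 0.118 CPM in the shallowest.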

Other observations

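Pf4 and Ppbp lie in a row of chemokine genes on chromosome 5. Cxcl5, on the side of Ppbp, was at 0.113 to 5.50 CPM in normal lungs and differed by 2.68 ± 1.72 (SE, log2) in tumors. Cxcl3, the next gene beyond Pf4 among those listed, went from 1.77 ± 1.17 CPM (SD, n = 5) to a mean of 23.2 CPM, with an adjusted p of 0.0849 by edgeR that did not pass. Cxcl15, the lung chemokine of airway and alveolar epithelium, rose by 1.41 ± 0.30 (adjusted p = 0.0172 by edgeR), from 3178 to 8728 CPM. Of the 7 genes of this row Ppbp was the only one with a negative difference, but Cxcl15 alone was called higher. The positive differences of the other 5 did not pass by edgeR. Cxcl5 had an adjusted p of 0.370, Cxcl1 differed by 1.73 ± 0.89 (0.264) and Cxcl2 by 0.91 ± 1.44 (0.751). The row was listed with the values of Ppbp and Pf4 known.

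The genes with the pattern most like Pf4 over the 11 libraries, looked up after its values were seen, were Tmem252 (Pearson r = 0.926), Trappc5, Slc35a2, Hacd1 and Noxo1, none of them a platelet gene of the lists. After the mean of each tissue was subtracted they were Tmem252 (0.935), Prg4, Cd5l, Trappc5 and Glul.

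Of 7 genes of marrow myeloid precursors 2 passed the filter on low counts, Prtn3 and Ltf. Prtn3 had 179 counts in the normal lungs and 41 in the tumors (adjusted p = 0.0961 by edgeR, which did not pass), and Ngp 150 and 6. Elane had 8 counts in the normal lungs and 0 in the tumors, Mpo 16 and 1, and Ctsg 7 and 7. Ltf, a gene of neutrophil granules and also of secretory epithelium, had 841 counts in the normal lungs and 23425 in the tumors, a difference of 2.89 ± 1.35 (SE, log2) with an adjusted p of 0.214 by edgeR.

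Of 8 genes that platelets share with endothelium, 4 were lower in tumors by edgeR (Vwf, Pecam1, Gng11 and Mmrn1), with a median of -1.40 in log2 units. Of 10 lung epithelial genes 1 was lower (Hopx) and 2 were higher (Sftpa1 and Sftpd), with a median of 0.43. Over all tested genes 7.91% were lower and 3.68% higher, so the 1 lower gene is near that share.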
